A study of Mus musculus with 6 samples.

Results

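The promoters of the numbered Zfp genes, a series of mouse zinc finger genes, were examined for H3K4me3 and for ASH2L in E14 embryonic stem cells (ESCs). A gene was a member when it was protein-coding in the GENCODE vM21 annotation of the mm10 genome, lay on chromosomes 1 to 19 and had a symbol made of Zfp and a number. Zfp42 was left out. This gave 357 genes of 20807 protein-coding genes, and the other 20450 genes served as the comparison. A promoter was the stretch from 1000 bp before to 100 bp after each annotated transcript start, and a gene was counted as marked when an H3K4me3 peak overlapped any of its promoter stretches by at least 1 bp. For a marked gene the overlapping peak with the most tags (sequenced reads kept by the peak caller) is reported.

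The data came from CUT&RUN, in which an antibody guides a nuclease to its target inside permeabilised cells and the DNA cut free is sequenced. The 6 samples formed 3 groups of 2 duplicates. Parental E14 cells, labelled wild type, were probed with an anti-HA antibody. E14 cells carrying HA-Ash2L were probed with the anti-HA antibody, which reads only the tagged protein, or with an antibody to H3K4me3. All groups, parental cells included, were grown with serum and LIF and received doxycycline for 48 h to switch on the transgene. The labels call the HA-Ash2L line a knock-in, whereas the methods describe a transposon-borne, doxycycline-driven copy and screening of single colonies, and which of them holds is not settled. The duplicates were merged before the peaks were listed, so each measurement below is 1 value per gene with no spread between samples. Intervals are 95% and cover counting error only (Wilson for shares, exact Poisson for tags), and genes are not replicates of a condition. Values from the parental control were not used here.

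C2H2 zinc finger proteins bind DNA through strings of small zinc-holding modules. Many of them carry a KRAB domain near the start of the protein, which recruits the co-repressor TRIM28 and, through it, the H3K9 methyltransferase SETDB1 and the HP1 proteins. In ESCs these proteins are best known for silencing retrotransposons and for keeping DNA methylation at imprinted genes. The KRAB genes multiplied by local duplication and sit in clusters of close copies. H3K4me3 is laid down by the MLL/SET1 enzymes around the starts of active or poised genes, above all where the DNA is rich in CpG, and ASH2L is a core subunit of all these enzymes.

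The promoter sequences show how unlike the members are at the DNA level, so 4 kinds are printed first. Each is the 120 bases directly before the gene's most upstream annotated start, read 5′ to 3′ on the strand of the gene from the GRCm38 (mm10) genome, outside any annotated exon, with each CpG in capitals. Zfp568 (chr7:29983835-29983954, plus strand) had the most H3K4me3 tags of all members, and the stretch held 9 CpG and lay inside both its H3K4me3 and its ASH2L peak.
Zfp568: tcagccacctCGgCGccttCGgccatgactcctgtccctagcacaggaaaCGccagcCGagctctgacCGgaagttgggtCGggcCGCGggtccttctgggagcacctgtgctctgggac
Zfp106 (chr2:120563844-120563963, minus strand) stood for the ASH2L-bound members, with 7 CpG.
Zfp106: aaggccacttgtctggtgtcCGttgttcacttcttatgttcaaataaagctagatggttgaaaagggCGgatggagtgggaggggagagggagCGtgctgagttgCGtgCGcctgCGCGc
Zfp994 (chr17:22225617-22225736, minus strand) had the fewest tags of the marked members, with 4 CpG.
Zfp994: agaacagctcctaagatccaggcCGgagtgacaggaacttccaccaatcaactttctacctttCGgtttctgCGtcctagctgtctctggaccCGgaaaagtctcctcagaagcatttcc
Zfp292 (chr4:34882961-34883080, minus strand) held 14 CpG and had the highest CpG ratio of the members without a peak.
Zfp292: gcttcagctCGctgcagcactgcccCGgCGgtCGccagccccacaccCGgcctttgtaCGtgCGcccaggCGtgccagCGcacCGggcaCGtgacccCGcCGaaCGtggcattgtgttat

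The copied promoters are shown as pairs. Zfp969 (chr2:175703647-175703766, minus strand) and Zfp967 (chr2:176520936-176521055, plus strand) carry the same letters throughout, and neither had a peak.
Zfp969: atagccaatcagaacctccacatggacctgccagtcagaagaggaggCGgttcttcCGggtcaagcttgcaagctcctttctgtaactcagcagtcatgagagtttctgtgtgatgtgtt
Zfp967: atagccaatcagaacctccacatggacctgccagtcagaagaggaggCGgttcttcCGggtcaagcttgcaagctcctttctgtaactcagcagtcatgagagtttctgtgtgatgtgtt
Zfp978 (chr4:147361183-147361302, plus strand) and Zfp979 (chr4:147642514-147642633, minus strand) are the closest pair of the chromosome 4 cluster, again without a peak.
Zfp978: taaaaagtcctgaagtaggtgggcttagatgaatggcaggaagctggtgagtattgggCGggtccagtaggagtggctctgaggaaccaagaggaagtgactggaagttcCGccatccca
Zfp979: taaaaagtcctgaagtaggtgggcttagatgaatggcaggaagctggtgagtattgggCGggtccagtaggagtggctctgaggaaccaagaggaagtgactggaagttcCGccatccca

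Most Zfp promoters carried H3K4me3. Of the 357 genes, 309 had a peak (86.6%, interval 82.6 to 89.7), against 14211 of the other 20450 genes (69.5%, interval 68.9 to 70.1). The 309 genes drew on 305 distinct peaks. The Zfp share stayed above that of the other genes with every window, start site and peak filter tried, although a rule that needs the midpoint of the peak in the promoter narrowed the gap to 43.1% against 38.0%, with overlapping intervals (38.1 to 48.3 and 37.4 to 38.7). Among related families of C2H2 zinc finger genes, 11 of 11 Zkscan genes, 36 of 40 Zbtb genes and 10 of 19 Zscan genes were marked.

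The peaks of the marked Zfp genes had a slightly lower median of tags and length than those of the other marked genes. They held 22 to 1445 tags with a median of 432, against a median of 478 elsewhere. Their median length was 2655 bp, from 510 to 7724 bp, against 2970 bp. The density was alike, at a median of 159 and 155 tags per 1000 bp. Fold enrichment over the local background was higher at Zfp genes, with a median of 7.49 against 6.31. The order of the tags turned when only peaks at or above the median fold enrichment of the list were kept. The medians were then 351 at Zfp genes (interval 327 to 382) and 341 at the others (336 to 346). The order also turned with the peak midpoint in the promoter, to 467 (404 to 499) and 454 (447 to 464). The intervals overlap in both cases. With shared peaks left out the medians were 412 and 428 tags, with overlapping intervals (380 to 445 and 423 to 433). The peaks that covered the reference start (the start with the highest CpG ratio) reached a median of 1028 bp upstream and 1504 bp downstream of it at Zfp genes, against 1232 bp and 1640 bp at the others.

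At Zfp genes, as at the others, fold enrichment fell as peaks grew longer. The 72 Zfp peaks under 2000 bp had a median fold of 10.94, against 9.16 at the other genes, and a median of 228 tags. From 2000 to 3000 bp the median folds were 8.43 at Zfp genes and 7.42 at the others, and from 3000 to 5000 bp 5.73 and 5.54. The 32 peaks of 5000 bp or more had a median fold of 4.11 and a median of 976 tags, and the same length class of other genes had a median fold of 4.04. The local background was estimated from the same library within 10000 bp, so a long peak enters its own background. The share of that effect in the values was not tested.

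**Figure D1:**
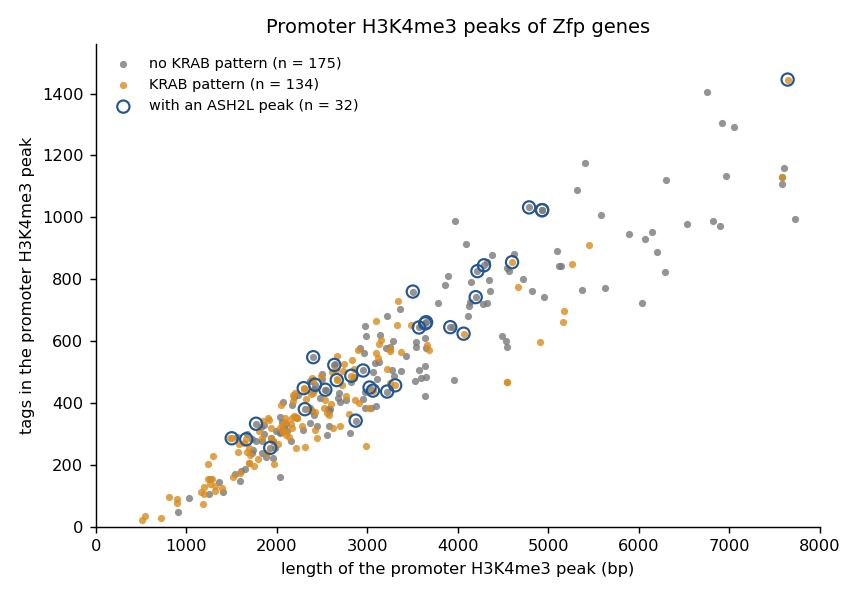
Tags (y axis) against length in bp (x axis) of the promoter H3K4me3 peak, 1 point for each of the 309 marked Zfp genes, coloured by KRAB pattern and ringed where an ASH2L peak overlapped the promoter. Lengths run from 510 to 7724 bp and tags from 22 to 1445, and the 32 ringed genes begin at 1501 bp.

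Zfp568, a KRAB protein that represses a placental Igf2 transcript, led with 1445 tags (interval 1371 to 1521) over 7646 bp. Zfp462, linked to heterochromatin in ESCs, followed with 1404 tags (1332 to 1479), and these intervals overlap. Zfp628 had 1305 tags, Zfp423, a transcription factor of neural and fat cell development, had 1291, and Zfp526 had 1177. Of these 5 genes Zfp568 alone had a KRAB pattern in the protein, as did 134 of all 309 marked members. The longest peaks belonged to Zfp503 with 7724 bp and 995 tags, Zfp568, and Zfp827 with 7606 bp and 1160 tags.

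The 5 marked genes with the fewest tags stood at the other end. Zfp994 had 22 tags (interval 13.8 to 33.3) and Zfp429 had 29 (19.4 to 41.6), so their intervals overlap. Zfp980 had 36 tags, Zfp541 had 49 and Zfp456 had 74. All but Zfp541 carried a KRAB pattern and lay in a cluster, beside 134 with the pattern and 148 in clusters among all 309 marked members.

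Of 28 members with a known role, listed for their functions, 19 were marked, beside 86.6% of all Zfp genes and 69.5% of the others, and their tags ranged from 261 to 1445 with a median of 773. Zfp281 and Zfp143, transcription factors active in ESCs, had 972 tags (interval 912 to 1035) and 952 tags (892 to 1014). Zfp207, a spindle assembly protein, had 988 and Zfp91, an E3 ubiquitin ligase, had 1134. Among the silencers, Zfp809, which restrains retroviruses in ESCs, had 624 tags (576 to 675), Zfp932, which binds endogenous retroviruses, had 350 (314 to 389), and Zfp445, which protects imprints, had 327 (293 to 364). The value of Zfp809 stood clear of both others, whose intervals overlap. Zfp57, the other protector of imprints, had no peak at its promoter, and the nearest one lay 17635 bp away. Zfp296, Zfp36, Zfp217, Zfp219, Zfp982, Zfp534, Zfp600 and Zfp352 also had none.

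A KRAB pattern was found in the longest annotated protein of 163 members, and a median of 11 zinc fingers per member was counted. Fewer than 3 C2H2 fingers were counted in 33 members, and 12 of these had none. The KRAB pattern misses some domains: Zfp445 and Zfp819, known as KRAB proteins, did not match it. How many more members carry the domain without a match was not tested. The group without the pattern is thus not a group without the domain. Of the 163 genes, 134 were marked (82.2%, interval 75.6 to 87.3), and of the 194 without the pattern 175 (90.2%, interval 85.2 to 93.6). With genes whose promoters are mostly copied left out, 92.3% of KRAB genes were marked and 90.2% of the rest, and with the chromosome 4 cluster described below left out the share of KRAB genes was 90.3%. The order also turned with the stricter fold filter, to 70.6% and 52.1%, but held with the peak midpoint in the promoter, at 35.0% and 50%. Marked KRAB genes had a median of 359 tags over 2306 bp, against 501 tags over 3080 bp without the pattern. Their promoters also held less CpG, with a median ratio of 0.53 against 0.71 over all genes of either kind. Within the CpG ratio bin from 0.4 to 0.6 the medians were 354 and 322 tags, and from 0.6 to 0.8 they were 416 and 507. A further 80 genes outside the series had both the pattern and at least 3 fingers, of which 53 were marked (66.2%, interval 55.4 to 75.7) with a median of 295 tags.

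The share of marked members differed with CpG content. The ratio of observed to expected CpG was taken within 500 bp of each start, and the start with the highest ratio stood for the gene. Its median was 0.65 for Zfp genes and 0.64 for the others, but the lower quartile was 0.46 for Zfp genes and 0.28 for the others. Below a ratio of 0.2, 3 of 13 Zfp genes were marked (23.1%, interval 8.18 to 50.3), against 4.65% (4.01 to 5.40) of the other genes. From 0.2 to 0.4 the count was 35 of 58 (60.3%, interval 47.5 to 71.9), against 38.2% (36.5 to 39.8) of the other genes. From 0.4 to 0.6 all 78 Zfp genes were marked (interval 95.3 to 100), against 87.2% (85.8 to 88.4). From 0.6 to 0.8 the shares were 94.2% and 95.4%, and from 0.8 upward 89.9% and 95.4%, with overlapping intervals in both bins. From the lowest bin to the highest, the marked Zfp genes had medians of 107, 286, 351, 467 and 644 tags.

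**Figure D2:**
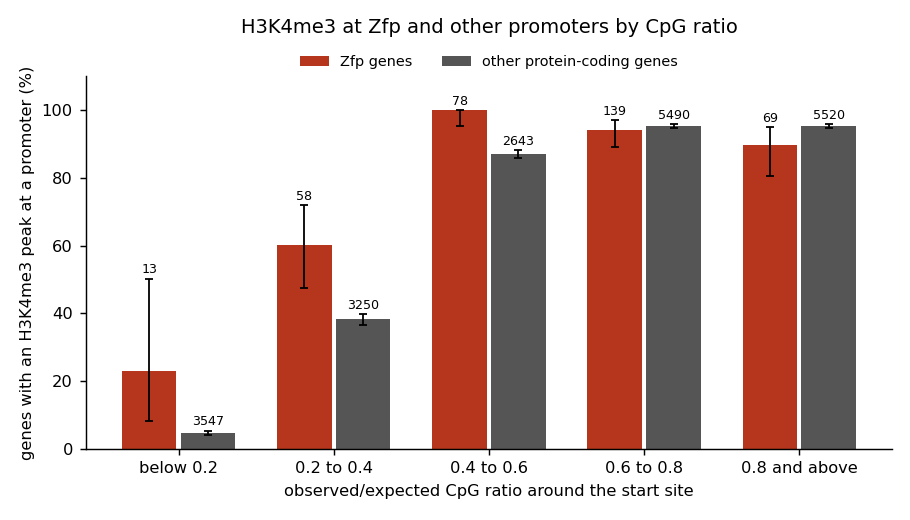
Share of genes with an H3K4me3 peak at a promoter (y axis, percent) in 5 bins of the CpG ratio (x axis) for Zfp genes and for all other protein-coding genes; error bars are 95% Wilson intervals and the number over each bar counts the genes. The Zfp bars stand above the others in the 3 lower bins and reach 100% from 0.4 to 0.6.

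After seeing the data, the genes were put into 3 classes. A promoter was called copied when at least 50% of its 100-base words had an exact copy elsewhere in the genome, and the remaining promoters were called CpG-poor below a ratio of 0.4 and CpG-rich otherwise. In the CpG-rich class 271 of 284 Zfp genes were marked (95.4%), and 94.5% of the others. In the CpG-poor class 35 of 52 Zfp genes were marked (67.3%, interval 53.8 to 78.5), and 1393 of 6297 others (22.1%, interval 21.1 to 23.2). Among all genes, 13 Zfp genes and 3547 others lay below a ratio of 0.2, and 58 and 3250 from 0.2 to 0.4. The shares given above for these bins lie closer together than those of the class. The bins also hold copied genes, which the class leaves out, and the part of either difference in the gap was not tested. In the copied class 3 of 21 Zfp genes were marked (14.3%, interval 4.98 to 34.6), and 4.23% (2.90 to 6.12) of the others.

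**Figure D3:**
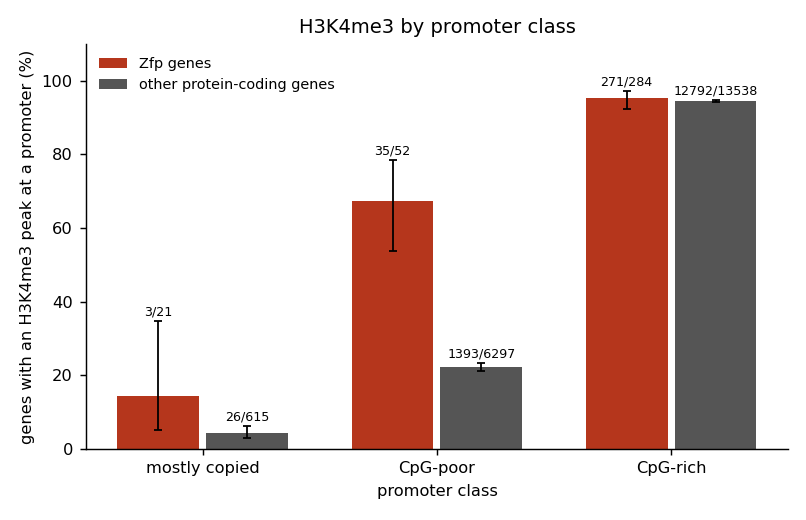
Share of genes with an H3K4me3 peak (y axis, percent) in the copied, CpG-poor and CpG-rich classes of promoter (x axis) for Zfp genes and all others; error bars are 95% Wilson intervals and the labels give marked genes over all genes. The CpG-poor bars, 67.3% and 22.1%, lie farthest apart, and the CpG-rich bars are level.

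Of the 357 genes, 169 lay in 16 clusters, taken as runs of at least 5 members with neighbouring starts at most 500000 bp apart. Inside the clusters 148 genes were marked (87.6%, interval 81.8 to 91.7), and outside them 161 of 188 (85.6%, interval 79.9 to 89.9). The order turned with a gap of 1000000 bp, to 85.9% and 87.3%, and with the peak midpoint in the promoter, to 42.0% and 44.1%. All these pairs of intervals overlap. With the stricter fold filter the shares were 68.6% (61.3 to 75.2) inside and 53.2% (46.1 to 60.2) outside, with intervals apart. In 9 clusters every member was marked. One cluster stood apart. The 18 genes on chromosome 4, here cluster 4A, included 15 of the 21 unmarked cluster genes, and without it 145 of 151 clustered genes were marked (96.0%, interval 91.6 to 98.2).

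**Figure D4:**
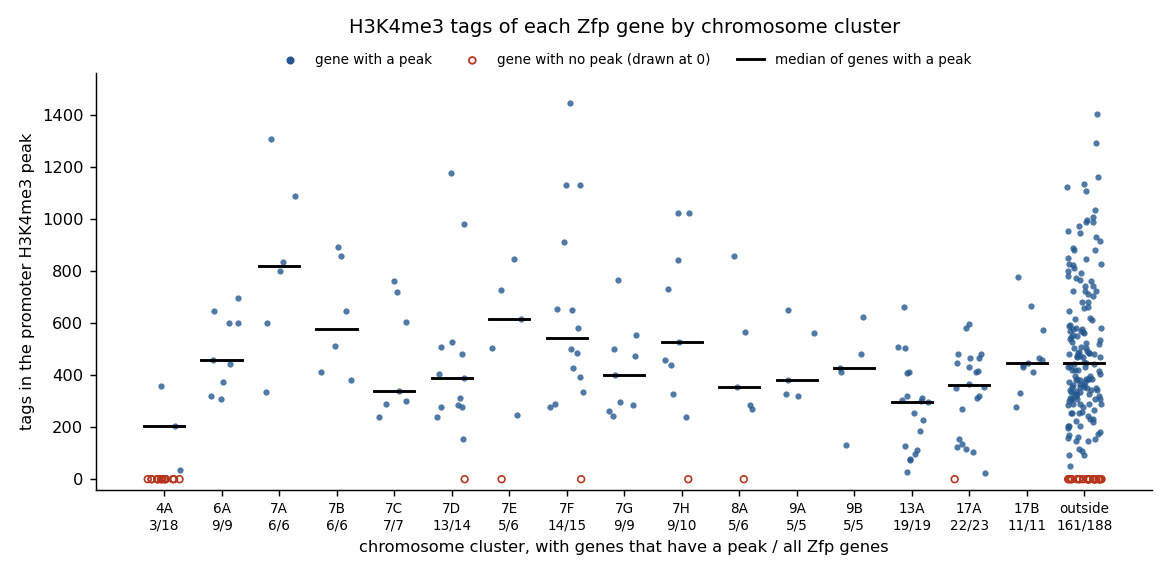
Tags in the promoter H3K4me3 peak (y axis) of each Zfp gene in the 16 clusters, named by chromosome and letter, and outside them (x axis); open circles at 0 are genes with no peak, bars are medians of the marked genes. In cluster 4A 15 of 18 genes lie at 0, against 6 of 151 in the other clusters.

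Cluster 4A spans chr4:145510759-147848366 and holds the gene family of Zfp982, Zfp534 and Zfp600, all with a KRAB pattern. Its 3 marked genes had 357 tags (Zfp933), 203 tags (Zfp981) and 36 tags (Zfp980). Zfp933, at one end of the cluster, had no copied word and a CpG ratio of 0.49, whereas the cluster's medians were 57.2% copied words and a ratio of 0.22. The unmarked genes named by position were Zfp990, Zfp986, Zfp987, Zfp600, Zfp992, Zfp993, Zfp989, Zfp991, Zfp988 and Zfp978, with 5 more. By 100-base words, 9 of the 15 unmarked genes had mostly copied promoters. The other 6 were Zfp990, Zfp992, Zfp988, Zfp982, Zfp985 and Zfp984, all CpG-poor, with copied shares from 1.87% at Zfp985 to 48.5% at Zfp988. By 50-base words Zfp990 (54.4%) and Zfp988 (72.2%) were mostly copied too. The region was not empty of peaks: 37 H3K4me3 peaks with a median of 36 tags, and 17 ASH2L peaks, lay in its 2.34 Mb. The H3K4me3 peaks were sparse, at 15.8 per Mb against 21.2 to 90.4 in the other clusters, and the median of all H3K4me3 peaks was 113 tags. No other cluster held more than 4 ASH2L peaks, and all peaks were called without a control library.

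A wider run on chromosome 2, found with a gap of 1000000 bp, held the most copied promoters. Zfp968, Zfp965, Zfp969, Zfp966, Zfp967 and Zfp973 had 100% copied words and no peak. Their neighbours Zfp970, Zfp931, Zfp972 and Zfp971 were 68.8%, 56.6%, 42.9% and 29.1% copied, and had 203 tags (interval 176 to 233), 91 tags (73.3 to 112), 107 tags (87.7 to 129) and 288 tags (256 to 323). The CpG ratios of these 4 ran from 0.15 to 0.36. Zfp831, at one end of the run, had no copied word and 222 tags. Reads that lie wholly inside an exact copy cannot be placed on one of its sites, and the methods name a mapping quality limit for the ratio tracks of ChIP-seq data, while the one behind these peaks is not given in the sources used here. For the copied genes a missing peak and unplaced reads cannot be told apart.

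**Figure D5:**
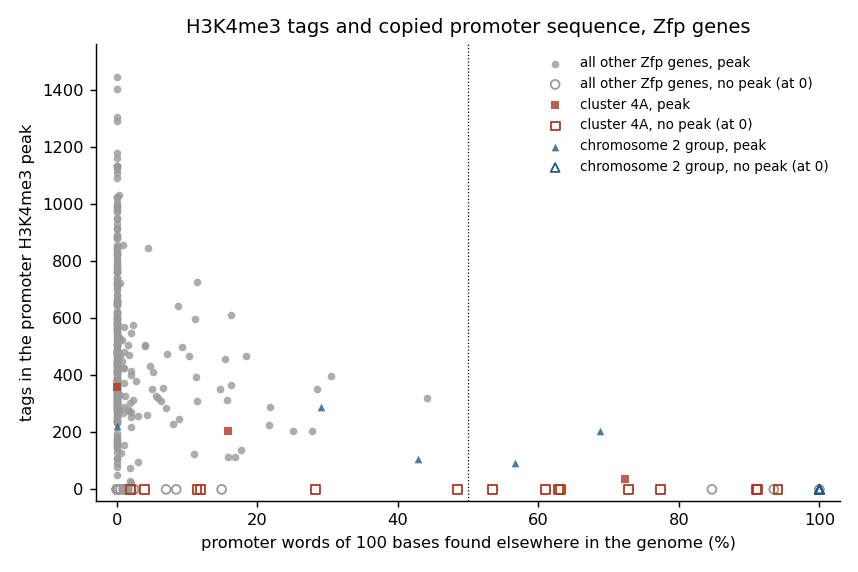
Tags in the promoter H3K4me3 peak (y axis) against the percentage of 100-base promoter words that have an exact copy elsewhere (x axis), 1 point for each of the 357 Zfp genes, with cluster 4A and the chromosome 2 run set apart and unmarked genes drawn open at 0. To the right of the dotted line at 50% only Zfp970, Zfp980 and Zfp931 had a peak.

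The remaining clusters differed in level more than in share. Cluster 13A (chr13:67038596-67827002) had all 19 genes marked with a low median of 295 tags, from 29 at Zfp429 to 663 at Zfp87, and a median CpG ratio of 0.41. Cluster 17A had 22 of 23 genes marked with a median of 360 tags, from 22 at Zfp994 to 596 at Zfp229, and Zfp52 was its unmarked member. Cluster 17B had all 11 marked, from 278 at Zfp414 to 776 at Zfp871. A KRAB pattern was found in 10, 20 and 10 members of these 3 clusters, beside 102 of the 169 clustered genes.

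Chromosome 7 alone carried 89 members, 83 of them marked, in 8 clusters and outside them. The small cluster 7A (chr7:4915217-5053723) had the highest median of all clusters, 817 tags, from 333 at Zfp784 to 1305 at Zfp628. Like clusters 7D and 7E it had no match to the KRAB pattern, which does not show that the domain is absent. Cluster 7F had 14 of 15 marked, from 277 at Zfp14 to 1445 at Zfp568, with Zfp566 unmarked. Cluster 7D had 13 of 14 marked, from 156 at Zfp114 to 1177 at Zfp526, with Zfp574 unmarked. Cluster 7E (247 at Zfp974 to 844 at Zfp59) lacked a peak at Zfp36, and cluster 7H (237 at Zfp629 to 1023 at Zfp668) at Zfp553. Clusters 7B (380 at Zfp667 to 891 at Zfp78), 7C (238 at Zfp551 to 761 at Zfp446) and 7G (241 at Zfp658 to 764 at Zfp819) had every gene marked.

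The last clusters lay on chromosomes 6, 8 and 9. All 9 genes of cluster 6A were marked, from 308 tags at Zfp956 to 697 at Zfp746. In cluster 8A Zfp869 was unmarked and the rest ran from 270 at Zfp964 to 855 at Zfp866. Cluster 9A ran from 320 at Zfp560 to 651 at Zfp266, and cluster 9B from 131 at Zfp872 to 624 at Zfp809.

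The 48 members without H3K4me3 fell into all 3 classes, 18 copied, 17 CpG-poor and 13 CpG-rich, or 37.5%, 35.4% and 27.1%. Among the other unmarked genes the same classes held 589, 4904 and 746, and the CpG-poor class made up 78.6%. All 18 copied genes carried a KRAB pattern, as did all 21 copied members, marked or not, and 163 of all 357 members. The nearest peak of the 18 lay a median of 46226 bp from a start. The 13 CpG-rich genes were Zfp217, Zfp704, Zfp292, Zfp296, Zfp574, Zfp36, Zfp566, Zfp710, Zfp553, Zfp219, Zfp740, Zfp57 and Zfp532. Their CpG ratios ran from 0.60 to 0.98, at most 2.42% of their words were copied, and 2 of them had a KRAB pattern. Their nearest peaks lay 1558 to 17635 bp away with a median of 8249 bp and a median fold of 4.34.

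Zfp217, a co-repressor subunit, illustrates this last class. Its ratio was 0.94 at the reference start. The nearest peak, with 336 tags, began 1558 bp downstream of another start of the gene and lay upstream of the reference start. Zfp292, printed above with its 14 CpG, had a 478-tag peak 2528 bp upstream. A missing entry does not show an unmethylated promoter, since the list holds only stretches that passed the caller's threshold against the local background. Among the ESC marker genes Pou5f1, Sox2 and Nanog also had no entry at their promoters, while Esrrb, Klf4, Tfcp2l1, Lin28a and Dppa4 had 430 to 1239 tags. Of 8 markers of other tissues, 4 had a peak, with 91 to 340 tags. Beside these counts, 5 of the 8 ESC markers and 69.5% of all genes outside the Zfp series had a peak. The lists are short and a difference between them was not tested.

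ASH2L peaks were found at few Zfp promoters. Of the 357 genes, 32 had one (8.96%, interval 6.42 to 12.4), against 1647 of the others (8.05%), so the shares did not differ beyond counting error. The 32 genes drew on 31 distinct peaks. All 32 were also marked by H3K4me3, as were 1603 of the 1647 others. ASH2L tags ran from 20 to 53 with a median of 33.5, against a median of 36 at the other genes, so that each single value is known only broadly. With a p-value score of at least 100, 1 Zfp gene remained (0.280%, against 0.973% of the others), and it was Zfp106.

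The highest ASH2L value was at Zfp148, a transcription factor that binds GC-rich promoters, with 53 tags (interval 39.7 to 69.3). Zfp668 and Zfp646, arranged head to head on chromosome 7, shared a peak of 51 tags (38.0 to 67.1) and an H3K4me3 peak of 1023 tags. Zfp106, an RNA-binding protein of nerve and muscle, and Zfp866 each had 50, Zfp592 and Zfp202 had 47, and Zfp318 had 41. Zfp597 followed with 39, Zfp672 with 38, and Zfp1 and Zfp142 with 37 each. The intervals of these 12 genes overlap, so they have no firm order. Of the genes with a role in silencing, Zfp568 had 34 ASH2L tags (23.5 to 47.5) and Zfp809 had 25 (16.2 to 36.9).

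ASH2L-bound Zfp genes had a higher median of H3K4me3 tags than the other marked members. Their median was 514 tags over 3140 bp, from 255 to 1445 tags, against 415 tags over 2575 bp at the 277 marked genes without ASH2L. Peaks of 5000 bp or more were found at 1 of the 32 genes and 31 of the 277 (11.2%), a difference that was not tested, and the median fold was 6.58 and 7.58. Among the other genes with and without ASH2L the median tags were 586 and 462, and 14.8% and 12.6% of their peaks were that long. The median CpG ratio was 0.80 at the ASH2L-bound Zfp genes and 0.65 at the marked Zfp genes without ASH2L, and 0.82 and 0.73 among the other genes. No Zfp gene under a ratio of 0.4 had an ASH2L peak, where 0.0846% (below 0.2) and 0.646% (0.2 to 0.4) of the other genes did, and the shares in the 3 higher bins were 6.41%, 7.91% and 23.2%, against 4.20%, 10.6% and 16.8% of the others. Of the 32 genes, 10 had a KRAB pattern, or 6.13% of KRAB genes (interval 3.37 to 10.9), against 11.3% (7.61 to 16.6) of the genes without it. These intervals overlap.

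The ASH2L peaks sat close to the start. Their midpoints lay a median of 87.5 bp and at most 306 bp from the nearest start of the Zfp gene, against a median of 114 bp and at most 1378 bp at the other genes. At 29 of the 32 genes (90.6%) the whole ASH2L peak lay inside the H3K4me3 peak, as at 90.3% of the others, and its length was a median of 25.2% of it, against 24.1% elsewhere. Of the 10 members of cluster 7H, 4 had an ASH2L peak, Zfp771, Zfp747, Zfp668 and Zfp646, and the last 2 share 1 peak. Clusters 4A, 7C, 7D, 7E, 13A and 17A, with 18, 7, 14, 6, 19 and 23 members, held none. The share over all Zfp genes was 8.96%, and differences between clusters were not tested.

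Few Zfp promoters shared their H3K4me3 peak with another gene. This was so for 37 of the 309 marked genes, against 2974 of the 14211 other marked genes (20.9%), and 29 of the 37 had a partner on the opposite strand. For 10 genes the partner was another member, as with Zfp27 and Zfp383, which shared a peak of 1131 tags over 7587 bp, and Zfp942 and Zfp943, which shared 467 tags. For 27 genes the partner was no member, such as Bcs1l at Zfp142 and Mrps5 at Zfp661. Tags of a shared peak cannot be divided between the partners. Without shared peaks, 77.0% of Zfp genes and 57.0% of the others were marked.

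Short motifs known for binding promoter factors were counted in the 300 bases from 250 before to 50 after the reference start, on both strands, after the data had been seen. The ETS core CCGGAA was found at 135 of 357 Zfp genes (37.8%) and at 19.3% of the others, or at 39.5% and 25.3% when only marked genes were counted. It occurs in the printed stretches of Zfp568 and Zfp994, and in reverse in those of Zfp969 and Zfp967. CCAAT was found at 60.1% of Zfp genes with a KRAB pattern and 26.8% of those without it, and at 77.5% of the 80 other KRAB genes, against 36.0% of all other genes. The SP core GGGCGG was found at 46.5% of Zfp genes and 49.3% of the others, at 46.3% and 65.9% when only marked genes were counted, and at 75.0% of the 32 ASH2L-bound members. TATAAA was found at 4.76% of Zfp genes and 11.8% of the others, or at 5.18% and 6.09% when only marked genes were counted. The YY1 motif AAGATGGC (5.60% and 3.51%), the NRF1 motif GCATGCGC (6.16% and 3.51%) and the Kaiso motif TCTCGCG (5.04% and 3.82%) were rare in both. None of these strings contains another, and a match does not show that a factor binds.

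The genes that KRAB proteins work through were described in the same way. Of 23 genes of this silencing machinery, 21 had an H3K4me3 peak (69.5% of all genes outside the Zfp series did), with 116 to 1508 tags and a median of 774, and 5 had an ASH2L peak (8.05% of all genes outside the series did). Trim28, the co-repressor itself, had 1335 tags and Cbx5, an HP1 gene, had 1508, whereas Setdb1 had 116. The other HP1 genes, Cbx1 and Cbx3, had no H3K4me3 peak at the promoter, although Cbx1 had an ASH2L peak of 29 tags. Beside this list, the marked Zfp genes had a median of 432 tags and all other marked genes 478.

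The depth behind these values was 25677963 tags after filtering for ASH2L and 27328071 for H3K4me3. The ASH2L list held 2464 peaks with 0.398% of the tags, and the H3K4me3 list 59927 peaks with 45.7%. A median ASH2L peak thus rested on 32 tags, and promoters with weaker binding would not be listed.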

How the data were processed

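CUT&RUN libraries of E14 cells (6 samples, 3 groups) were used as 2 deposited peak lists, for HA-ASH2L and H3K4me3. The authors trimmed the reads, aligned them to mm10 with Bowtie2, merged duplicates and called peaks with MACS (1.4.3 per the file headers) without a control library, at a p cutoff of 1e-05, keeping 1 tag per position. The deposited tag counts per peak are whole reads. The deposited score is a scaled negative log10 of each peak's p-value. The deposited fold enrichment is a ratio to the local background. The tag sizes per the file headers, 151 and 142 bp, exceed the fragment limit that the methods state, and which reads were used is not settled.

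The members, gene lists, motifs and classes were chosen with earlier results of these data known. Genes were named by rule: the 5 members with most and the 5 with fewest tags, the 3 longest peaks, 12 ASH2L genes, the extremes and up to 10 unmarked genes of each cluster, and a list of 28 genes with a known role. Proteins were translated from the annotated coding exons, in place of the RefSeq proteins first planned, and the longest per gene was searched for fingers (C, 2 to 4 residues, C, 12, H, 3 to 5, H) and a KRAB pattern in the first 150 residues. Copied sequence was measured on 50- and 100-base words taken every 10 bases in the promoter windows, against the whole genome, both strands. Peak ends all lay within the GRCm38 chromosomes. Python 3.11.15, pandas 2.3.3 and scipy 1.17.1 were used, and the overlap procedure was tested on simulated data. Alternatives changed the window, the start sites, the peak filters, the overlap rule, the cluster gap and shared peaks, and 1 was added after seeing the data, leaving out copied promoters.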

Additional observations from a re-analysis of the deposited data

How the results depend on the processing

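No paired analysis was possible because the duplicates were merged before the peaks were listed. For the same reason no duplicate could be left out, and the spread between samples is unknown. Of 90 alternative values of 12 results, 54 stayed within the 95% interval of the reported share (Wilson) or median (order statistics) and 36 did not; the causes were not tested. Zfp genes had a higher share with H3K4me3 than the other genes under each alternative that gave both shares, with overlapping intervals (38.1 to 48.3 and 37.4 to 38.7) for the peak midpoint. A window of 2500 bp either side gave the other genes 73.1% with H3K4me3, 9.06% with ASH2L and a median of 470 tags. Starts of protein-coding transcripts only gave them 68.2%. Keeping peaks at or above the median fold gave H3K4me3 shares of 60.5% (Zfp), 36.2% (others), 68.6% (clustered), 53.2% (unclustered), 70.6% (KRAB pattern) and 52.1% (no pattern), ASH2L shares of 4.48% and 3.92%, medians of 351 and 341 tags, and of 2222 and 2292 bp. A score of at least 100 gave ASH2L shares of 0.280% and 0.973%, and 67.0% of the other genes H3K4me3. With the peak midpoint in the window, H3K4me3 shares were 43.1% (Zfp), 38.0% (others), 42.0% (clustered), 44.1% (unclustered), 35.0% (KRAB pattern) and 50% (no pattern), and the others had 5.76% with ASH2L, 454 tags (Zfp genes 467) and 2860 bp. Without shared peaks the shares were 77.0% and 57.0%, and the medians were 412 tags (interval 380 to 445) and 2565 bp for Zfp genes and 428 tags (423 to 433) and 2757 bp for the others, so that the tag intervals overlap. Without mostly copied promoters, an alternative added after seeing the data, the shares were 91.1% (Zfp), 71.5% (others), 92.5% (clustered) and 92.3% (KRAB pattern). Low ASH2L tag numbers limit any ranking of single genes.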
